A study of Mus musculus with 12 samples.

Results

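The opioid peptide genes Penk, Pdyn and Pnoc and the opioid receptor genes Oprm1, Oprd1, Oprk1 and Oprl1 were followed through brains of mice housed under winter-like or summer-like conditions. They were chosen by gene symbol, without regard to their values, and are 7 of the 18962 genes in the deposited table. All 7 were found, each once. RNA was sequenced from wild-type mice of the inbred laboratory strain CBA/N, and the tissue was the brain without its cerebellum and olfactory bulb. Winter-like housing meant 8 h of light, 16 h of dark and 10 °C, and summer-like housing 16 h of light, 8 h of dark and 30 °C, each for 4 weeks. There were 4 groups of 3 libraries, namely winter females, summer females, winter males and summer males. Sex and season come from letter codes, taken as male or female and as short-day cold or long-day warm; the labels do not spell the codes out, and the ages of the mice are not among them. Light and temperature were changed together and cannot be told apart here. The labels do not say whether each library of a group is its own animal, so a p-value speaks only of the variation among these libraries, part of which may be technical.

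Opioid peptides are cut out of larger precursor proteins in neurons, stored in dense-core vesicles and released with activity. Enkephalins act mainly at delta and mu receptors, dynorphins at kappa receptors and nociceptin at its own receptor. All 4 receptors couple to inhibitory G proteins, which lower cyclic AMP, open inwardly rectifying potassium channels and close calcium channels. In the rodent forebrain, projection neurons of the striatum are the best known source of both enkephalin and dynorphin: those with D2 dopamine receptors make enkephalin, and those with D1 receptors make dynorphin and substance P.

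Values are FPKM, fragments scaled to transcript length and to the library's mapped fragments, so levels can be compared between genes. Their sums lay between 358511 and 375041 per library, and between 16859 and 17003 genes were above 0. Read depth is unknown, and counting errors are therefore not given. Every marker gene listed for neurons, astrocytes, oligodendrocytes, microglia and endothelium passed the filter for testing. Some libraries stood apart in content or composition. Male winter replicate 1 had 24.9 FPKM of Pcp2, a gene of cerebellar Purkinje cells, against 2.05 or less in each other library. Trends with transcript GC content were strongest in replicate 1 of the winter females and replicate 3 of the summer females, where the Spearman correlation between GC content and a gene's deviation from its 12-library mean was -0.60 and -0.66. These correlations run across genes, which are not independent replicates. In bulk tissue a lower value can mean fewer cells of a type or less RNA per cell, and these cannot be told apart.

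What the 3 precursor genes encode can be read in their transcripts. The opioid core, tyrosine-glycine-glycine-phenylalanine followed by methionine or leucine, is the enkephalin itself and the start of every dynorphin. The coding frame was searched for tyrosine-glycine-glycine-phenylalanine in all synonymous spellings, whatever codon followed. Penk held 7 copies, of which 6 continue with methionine and 1 with leucine. Pdyn held 3 copies, all continuing with leucine. Of 21877 mouse genes searched in the same way, 71 (0.325%) held this stretch at all. Besides Penk and Pdyn only Krtap19-2 and Krtap19-4, which encode hair proteins, held 3 or more copies of it. Which residue follows in genes other than the precursors was not examined. In nociceptin the tyrosine is replaced by phenylalanine, and Pnoc held 1 copy of that variant. The stretches below are shown because they hold the opioid core, or its variant in Pnoc, with the codons on either side. Of the 7 Penk copies only copies 1 and 6 are shown. Capitals mark 5 codons, namely the searched stretch and the codon after it. The lower-case codons on either side code mostly for lysine and arginine, basic residues at whose pairs precursors are often cut.

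Penk, copy 1: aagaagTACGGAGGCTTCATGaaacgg
Penk, copy 6: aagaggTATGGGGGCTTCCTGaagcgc
Pdyn, copy 1: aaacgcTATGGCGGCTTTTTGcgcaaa
Pdyn, copy 2: aaacgcTATGGGGGCTTCCTGcggcgc
Pdyn, copy 3: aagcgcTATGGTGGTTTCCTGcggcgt
Pnoc, copy 1: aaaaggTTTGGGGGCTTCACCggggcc

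All 6 stretches come from GENCODE transcripts on GRCm38, read 5′ to 3′ along the coding strand, which is the minus strand of the genome in each case. Copies 1 and 6 of Penk lie at chr4:4134328-4134354 and chr4:4133935-4133961, in coding exon sequence of exon 2 of 2. The 3 copies of Pdyn lie at chr2:129688232-129688258, chr2:129688124-129688150 and chr2:129688067-129688093, all in exon 4 of 4, and open alpha-neoendorphin, dynorphin A and dynorphin B. The Pnoc copy lies at chr14:65404872-65404898, in exon 3 of 4. A basic pair stands before all 11 copies. It also stands after each of the 3 Pdyn copies and after 5 of the 7 Penk copies. In Pdyn the pair after the core belongs to the longer peptide that the core opens. The remaining Penk copies run on into longer enkephalins.

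Penk, which encodes the precursor of the enkephalins, was the most abundant of the 7 genes. It averaged 124 ± 12.3 FPKM over the 12 libraries (SD), higher than 97.5% of all genes in the table. The gene (18619) occupies chromosome 4 from 4133536 to 4138815 of GRCm38.p6. Its values were 96.3, 133 and 131 FPKM in winter females and 138, 126 and 110 FPKM in summer females. In males they were 131, 127 and 130 FPKM in winter and 129, 130 and 109 FPKM in summer. Winter and summer overlapped in both sexes, and the 3 lowest libraries fell 1 each in winter females, summer females and summer males.

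Pdyn, the precursor of the dynorphins (gene 18610, chromosome 2 from 129686549 to 129699938), was far steadier. It stood at 17.2, 18.01 and 15.6 FPKM in winter females and at 19.5, 17.6 and 18.2 FPKM in summer females. Winter males had 17.1, 18.3 and 17.5 FPKM, and summer males 16.7, 18.5 and 18.4 FPKM. The highest of the 12 values was 1.25 times the lowest, against 1.43 times for Penk. Pnoc, the precursor of nociceptin (gene 18155, chromosome 14 from 65400673 to 65425564), had 5.56, 7.03 and 5.51 FPKM in winter females and 7.03, 6.36 and 5.34 FPKM in summer females. In males its values were 6.07, 6.44 and 6.83 FPKM in winter and 7.01, 5.90 and 6.20 FPKM in summer. The groups overlapped for both genes. Of the summed FPKM of the 3 precursors, Penk made up 83.7 ± 1.45%, Pdyn 12.04 ± 1.27% and Pnoc 4.24 ± 0.335% (SD, n = 12), and the Penk share lay between 83.4% and 84.3% in all 4 group means.

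Among the receptors, Oprl1, which binds nociceptin, stood first. The gene (18389, chromosome 2 from 181715000 to 181720985) had 22.9, 23.3 and 28.0 FPKM in winter females and 25.5, 25.3 and 23.7 FPKM in summer females. Winter males had 23.9, 23.5 and 26.3 FPKM, and summer males 23.9, 24.1 and 22.9 FPKM. It thus made up 67.8 ± 2.28% of the summed receptor FPKM (SD, n = 12), although its ligand precursor was the lowest of the 3 precursors. Oprd1, the delta receptor gene (18386, chromosome 4 from 132110188 to 132144486), had 5.10, 6.32 and 6.08 FPKM in winter females and 5.61, 6.69 and 7.21 FPKM in summer females. Its values in males were 5.37, 5.21 and 6.06 FPKM in winter and 5.69, 6.24 and 6.61 FPKM in summer. Summer lay higher on average in both sexes, with overlap.

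Oprk1, the kappa receptor gene (18387, chromosome 1 from 5588450 to 5606134), had 4.44, 4.19 and 4.60 FPKM in winter females and 4.35, 4.25 and 5.00 FPKM in summer females. It had 4.02, 3.54 and 3.76 FPKM in winter males and 4.15, 4.49 and 4.01 FPKM in summer males. Winter males were the lowest group. Oprm1, the mu receptor gene and the main target of morphine (18390, chromosome 10 from 6758593 to 7038209), had the lowest level of all 7. Its values were 1.47, 1.51 and 1.61 FPKM in winter females and 1.37, 2.16 and 1.59 FPKM in summer females. Males had 0.92, 1.05 and 1.25 FPKM in winter and 1.41, 0.60 and 1.46 FPKM in summer. Oprm1 passed the filter for testing, which asked for 3 or more libraries at 1 FPKM or above, with 10 such libraries, and the other 6 genes passed it with 12. Oprm1 shares its locus with Ipcef1 on the opposite strand, which had 16.7 to 21.6 FPKM. The libraries are strand-specific, per the labels, but whether the counting used the strand is not given in the sources used here, so reads of Ipcef1 within Oprm1 cannot be set apart. The same applies to a noncoding transcript that overlaps the start of Penk on the opposite strand.

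Ordered by level, the genes ran Penk, Oprl1, Pdyn, Pnoc, Oprd1, Oprk1 and Oprm1. Each stood above the next in all 12 libraries, except Pnoc and Oprd1, with 6.27 ± 0.617 and 6.02 ± 0.644 FPKM (SD, n = 12), which did not differ beyond their spread and stood in this order in 7 libraries. Across neighbours the ratio of means was 5.08 from Penk to Oprl1, 1.38 from Oprl1 to Pdyn and 3.10 from Oprk1 to Oprm1.

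**Figure D1:**
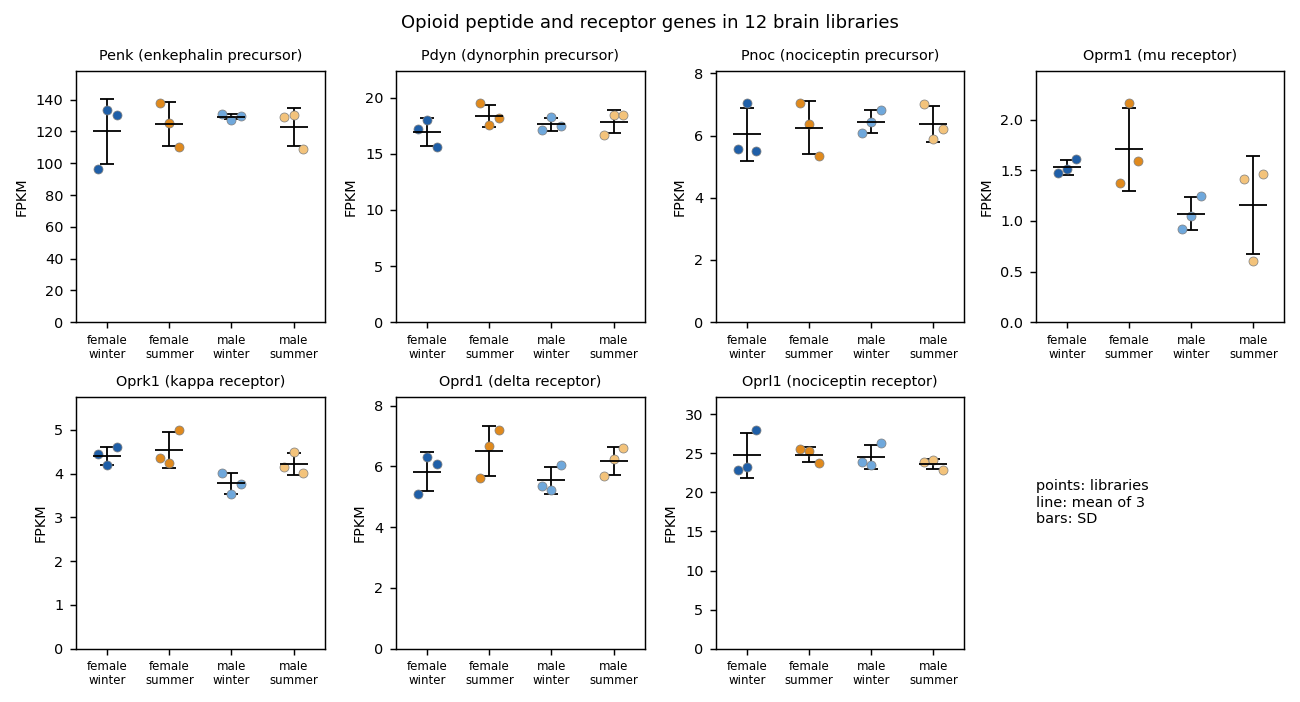
FPKM of the 7 genes (vertical axes, each from 0) in winter and summer females and males; points are libraries, lines the mean of 3 and bars the SD. Penk lies near 124 FPKM with 3 low libraries, Oprm1 near 1.4 FPKM with males mostly below females, and winter overlaps summer for every gene.

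The study's question was whether housing season changed expression, and for the opioid genes no change passed the test. Over both sexes, limma on log2(FPKM + 1) called 0 of the 7 members at an adjusted p under 0.05, and 0 had an unadjusted p under 0.05. The background was low as well: 0.00765% of the 13071 genes tested were called, and 4.88% had an unadjusted p under 0.05. Oprd1 had the largest difference, with 5.69 ± 0.523 FPKM in winter and 6.34 ± 0.619 FPKM in summer (SD, n = 6 each), a seasonal log2 difference (winter minus summer) of -0.13 ± 0.07 (SE; limma adjusted p = 0.997, unadjusted 0.0682). Without female winter replicate 1 and female summer replicate 3, the libraries with the strongest GC trends, it was -0.060, and that of Penk 0.042. Oprk1 had -0.08 ± 0.05, Pdyn -0.06 ± 0.05 and Oprm1 -0.06 ± 0.11. Single libraries moved these: Oprm1 was -0.16 without male summer replicate 2 and -0.0016 without female summer replicate 2, Pdyn -0.037 without female winter replicate 3 and Oprk1 -0.050 without female summer replicate 3. The remaining members, Pnoc, Penk and Oprl1, lay at -0.013, 0.0093 and 0.020. Without male winter replicate 1, the library with Pcp2, the 7 values lay between -0.12 for Oprd1 and 0.029 for Oprl1, and 0 were called.

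The intervals show what size of change these data allow. They are given as winter to summer ratios of FPKM + 1, not of FPKM. For Oprl1 the 95% interval ran from 0.937 to 1.10, for Pdyn from 0.891 to 1.03 and for Penk from 0.894 to 1.13. Oprd1 had 0.825 to 1.01 and Oprk1 0.874 to 1.02. The widest interval was that of the scarce Oprm1, from 0.821 to 1.12, on a scale that understates changes of low genes. The members' median of -0.06 compares with -0.003 for all genes tested, and 5 of the 7 were negative, where 47.9% of all genes were positive. Winter and summer values overlapped for all 7 genes; of all genes 0.115% were higher and 0.168% lower in every winter library. To be called alone, a member would have needed a log2 difference between 0.35 for Pdyn and 0.77 for Oprm1.

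Within 1 sex the picture was no sharper. In females all 7 members had negative winter minus summer values, where 48.3% of all genes were positive. These signs come from the same libraries and are not independent. The members ran from -0.01 for Oprl1 to -0.13 for Oprd1, and Pdyn had -0.11 ± 0.07 (log2, SE). Limma called 0 of them, as it called 0% of all genes, and the unadjusted p was under 0.05 for 0 of 7, against 1.74% of all genes. With female winter replicate 1 and female summer replicate 3 left out, 4 of the 7 turned positive, namely Penk, Oprk1, Oprd1 and Oprl1, all at 0.025 or less. In males 4 members were negative and 3 positive, between -0.13 for Oprd1 and 0.08 for Penk; 0 were called, against 0.00765% of all genes, and none fell below an unadjusted p of 0.05, against 5.01%. In neither sex did winter and summer separate for a member, where 1.92% of all genes were higher and 2.28% lower in every winter female, and 6.12% higher and 6.53% lower in every winter male. Oprk1 in males had 3.77 ± 0.240 FPKM in winter and 4.22 ± 0.247 FPKM in summer (SD, n = 3 each), or -0.13 ± 0.08 on the log2 scale (limma adjusted p = 0.974).

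Whether the season effect differed between females and males was tested as an interaction. It was called for 0 of the 7 members and for 0% of all genes by limma, and the unadjusted p was under 0.05 for 0 members, against 1.8% of all genes. The largest value was that of Penk, at a log2 value of -0.14 ± 0.16 (SE; season effect of females minus that of males), which was 0.0099 without female winter replicate 1. To be called alone, an interaction would have needed a log2 value between 0.70 for Pdyn and 1.53 for Oprm1.

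The clearest contrast among the opioid genes was that of sex, in receptors, and it did not pass over all genes. Oprm1 averaged 1.62 ± 0.279 FPKM in females and 1.12 ± 0.326 FPKM in males (SD, n = 6 each). The female minus male value was 0.32 ± 0.11 (SE) on the log2(FPKM + 1) scale (limma unadjusted p = 0.00921, adjusted p = 0.371). As a ratio of FPKM + 1, not of FPKM, this was 1.25-fold with an interval of 1.07 to 1.46. All 3 winter females lay above all 3 winter males, which 9.53% of all genes showed in that direction, whereas the summer groups overlapped. The log2 value was 0.22 without male summer replicate 2, the lowest library at 0.60 FPKM. It was 0.34 without the 2 libraries with the strongest GC trends and 0.29 without male winter replicate 1. With a pseudocount of 0.1 in place of 1 it was 0.54 (limma adjusted p = 0.384), the low level being compressed less on that scale. The GC trend lay between -0.18 and 0.55 in male libraries and between -0.66 and 0.47 in female libraries. Oprm1 ran against that trend also without the 2 libraries where it was strongest, with Pearson's r of -0.62. The part of the GC trend in the sex difference was not tested.

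Oprk1 had 4.47 ± 0.297 FPKM in females and 4.00 ± 0.326 FPKM in males (SD, n = 6 each). Its female minus male value was 0.13 ± 0.05, or 1.10-fold in FPKM + 1 (limma unadjusted p = 0.0263, adjusted p = 0.403). Here too the winter groups did not overlap and the summer groups did; without the 2 libraries with the strongest GC trends the value was 0.10 (unadjusted p = 0.1001 by limma). For Oprd1 and Oprl1, the other receptor genes, female minus male values were 0.06 ± 0.07 and 0.04 ± 0.05, and Penk, Pnoc and Pdyn had -0.05 ± 0.08, -0.06 ± 0.07 and -0.01 ± 0.05. In all, limma called 0 of the 7 members for sex, against 0.0612% of all genes. Over both seasons 0 members separated the sexes fully, against 0.398% of all genes higher and 0.245% lower in every female. Within winter 2 members were higher and 0 lower in every female, against 9.53% and 7.05% of all genes, and within summer 0 were higher or lower, against 4.93% and 3.24%. An unadjusted p under 0.05 was reached by 2 members, both receptors, against 11.6% of all genes.

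**Figure D2:**
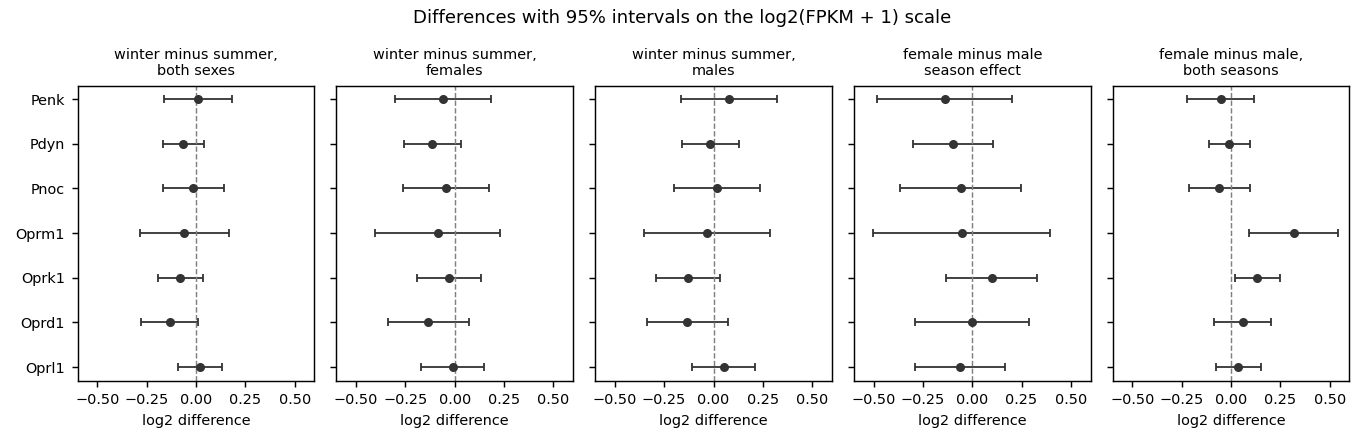
Differences of the 7 genes on the log2(FPKM + 1) scale (horizontal axes) for 5 contrasts; points are limma estimates and bars 95% intervals. The season intervals all span 0, and in the sex contrast those of Oprm1 and Oprk1 lie above 0 without an adjustment for the number of genes tested.

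Penk stood out less for a group difference than for its spread between libraries of the same group. Its SD within groups was 0.17 on the log2(FPKM + 1) scale, larger than that of 189 of the 200 tested genes nearest to it in level, whose median was 0.08. Oprm1, at 0.21, exceeded 181 of its 200 neighbours, and Pnoc, at 0.14, exceeded 157. The steady members were Oprk1 and Pdyn, both at 0.08, which exceeded 31 and 69 of 200. The median over the 7 members was 0.13, against 0.10 over all genes tested.

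**Figure D3:**
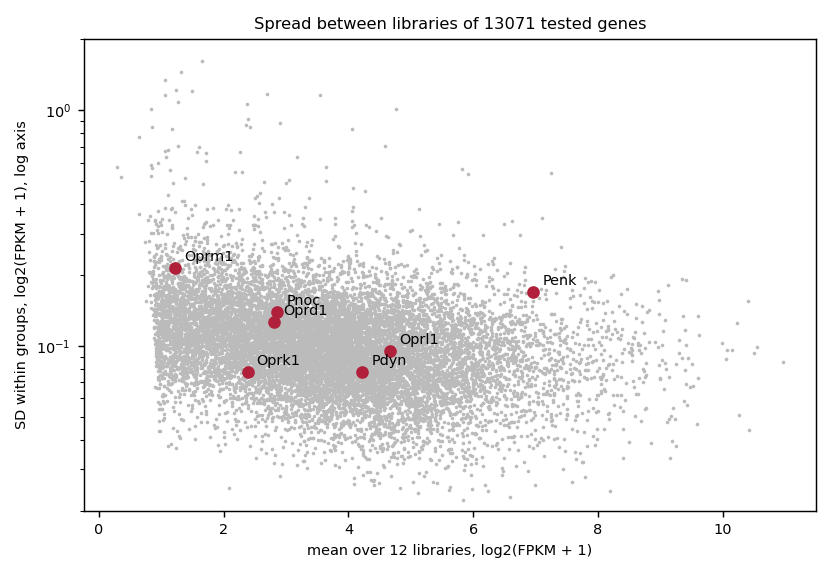
SD within groups (vertical, log axis) against mean level (horizontal) for the 13071 genes tested, both in log2(FPKM + 1); the 7 opioid genes are marked. Penk lies in the upper part for its level, and Oprk1 and Pdyn in the lower part for theirs.

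The libraries low in Penk were examined beside striatal genes and library composition. Female winter replicate 1, with 96.3 FPKM of Penk, also had the lowest values of the D2 receptor gene Drd2, at 16.1 FPKM, and of Adora2a, the adenosine receptor gene of the same neurons, at 11.5 FPKM. The median deviation of 10 striatal marker genes there was -0.089 on the log2 scale, against -0.36 for Penk. There 7 of the 10 markers lay below their own mean. In male summer replicate 3 Penk deviated by -0.18 and the markers by -0.026 at the median, with 8 of 10 below their mean. In female summer replicate 3 Penk deviated by -0.17 and the markers by 0.038, with 2 of 10 below. Similar counts occurred where Penk was not low. Male winter replicate 3 had 7 of 10 below and female summer replicate 2 had 8 of 10, with Penk at 130 and 126 FPKM. The remaining libraries had between 0 and 6 below, in male summer replicates 2 and 1. Gpr6, a receptor gene of the enkephalin neurons, was lowest in male summer replicate 3, at 3.75 FPKM. In that library Drd2 and Adora2a deviated by only -0.015 and -0.066. Gpr6 deviated by -0.049 in female winter replicate 1. In female summer replicate 3 Gpr6, Drd2 and Adora2a all lay above their means, by 0.099, 0.0039 and 0.017. Summed over the list, the striatal markers ranged from 412 to 459 FPKM in winter and from 417 to 469 FPKM in summer, so the seasons overlapped.

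Penk also ran with the libraries' trend with GC content, as many genes did. Over the 12 libraries Pearson's r was 0.83 (permutation p = 0.00063, adjusted over all genes tested 0.00822) and Spearman's rho 0.77 (permutation p = 0.00515, adjusted 0.0398), both two-sided. The trend was itself computed from these genes, and 9.34% of those tested had an r at least as strong in either direction, with a median of 0.49 regardless of sign. Without female winter replicate 1 and female summer replicate 3, the libraries farthest from the median trend, r of Penk was 0.64 over 10 libraries (permutation p = 0.0148, adjusted 0.178), which 17.9% of genes reached, so the relation passed the adjustment only with them. Oprm1 ran the opposite way, with r of -0.55 (permutation p = 0.0641, adjusted 0.147) and rho of -0.71 (permutation p = 0.013, adjusted 0.0652), or r of -0.62 over those 10 libraries (permutation p = 0.0545, adjusted 0.269). An r as strong as that of Oprm1 over 12 libraries was found in 43.9% of genes. Pnoc had r of 0.65 (permutation p = 0.0244, adjusted 0.0738), as strong as in 31.4% of genes, and rho of 0.58 (permutation p = 0.0502, adjusted 0.144), and r of 0.31 over the 10 libraries (permutation p = 0.387, adjusted 0.66). The remaining 4 genes had r between -0.51 and 0.31, with adjusted permutation p of 0.194 or more. Penk's longest transcript has 52.7% GC, above that of 64.7% of genes tested, whose median was 49.8%. The part of the GC trend or of striatal content in the spread of Penk was not tested.

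**Figure D4:**
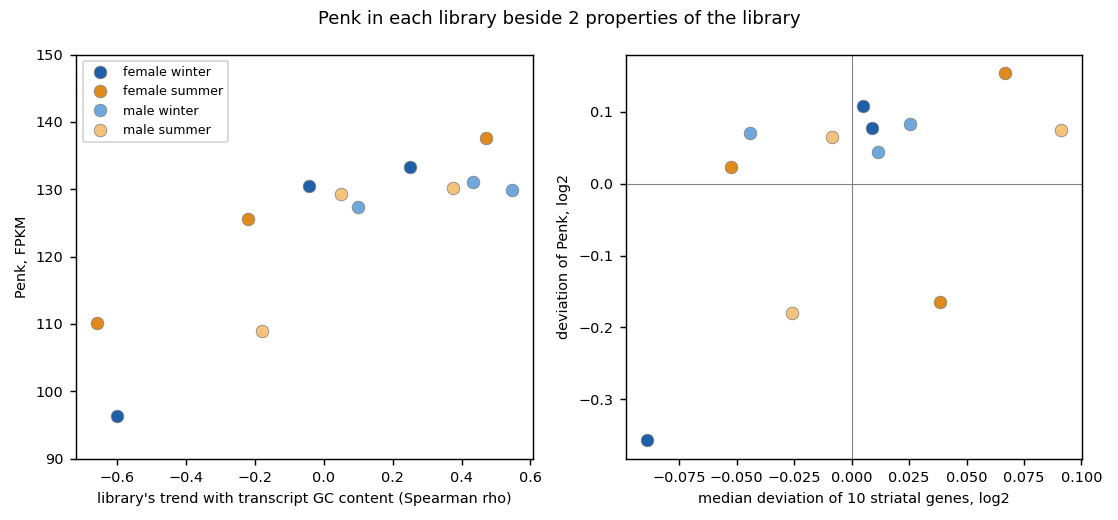
Left, Penk in FPKM (vertical axis, from 90) against each library's trend with transcript GC content (horizontal axis); right, the log2 deviation of Penk against the median log2 deviation of 10 striatal genes. The 3 libraries lowest in Penk, at 96.3, 109 and 110 FPKM, lie at GC trends of -0.60, -0.18 and -0.66, and of these only female winter replicate 1 is also lowest in striatal genes.

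The genes most alike to each member over the 12 libraries were taken as the 3 with the highest Pearson's r on log2(FPKM + 1) among the 13071 tested; as the highest of so many they are a description with no p. Penk was closest to Brat1, Tmem219 and Snx21, at r of 0.97, 0.96 and 0.96. None of these is on the list of striatal markers, which is likely in any case for a list of 10 genes among 13071. For Oprm1 they were Rab30, Col12a1 and Th, the last encoding the enzyme that limits dopamine synthesis, at 0.93, 0.92 and 0.91. Oprd1 was closest to Zfp236 at 0.96, Oprk1 to Akr1e1 at 0.93, Pnoc to Rnf31 at 0.91, Pdyn to Mrpl24 at 0.91 and Oprl1 to Ago1 at 0.86. No member was among the 3 closest genes of another member.

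Genes that make, break down and relay opioid peptides were taken from lists chosen for their known roles. Limma called 0 of the 9 processing genes, 0 of the 7 breakdown genes, 0 of the 20 tested of 21 signalling genes and 0 of 3 related genes for season over both sexes, against 0.00765% of all genes. Their median winter minus summer values were -0.0044, 0.0075, -0.0094 and -0.0084 on the log2 scale, against -0.003 for all genes. Unadjusted p-values under 0.05 were reached by 0, 2, 1 and 0 of them, against 4.88% of all genes.

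In the breakdown list these were the aminopeptidase genes Anpep at 0.14 ± 0.06 and Npepps at -0.10 ± 0.04 (log2, SE, limma adjusted p = 0.997 each), of opposite sign. Npepps, a puromycin-sensitive enzyme that cleaves enkephalin, had 39.7, 41.3 and 39.4 FPKM in winter males and 44.7, 45.7 and 48.5 FPKM in summer males, without overlap, as 6.53% of all genes were lower in every winter male; in females its season value was -0.0067. Of the processing genes, Pcsk2, a convertase that cuts precursors at basic pairs, had 0.07 ± 0.04, and Cpd, a carboxypeptidase that trims them, -0.07 ± 0.04. The signalling genes with the smallest p were Kcnj3, a subunit of the potassium channel that opioid receptors open, at 0.10 ± 0.04, and Grk5, a receptor kinase, at -0.08 ± 0.05. Pomc, the precursor of beta-endorphin, had 0.22 ± 0.13 at a level of 0.72 to 2.16 FPKM, and Ogfrl1, related to the opioid growth factor receptor, -0.02 ± 0.05.

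For sex, limma called 0 members of the same lists, against 0.0612% of all genes, and 3 processing, 0 breakdown and 4 signalling genes had an unadjusted p under 0.05, against 11.6% of all genes. The striatal marker genes Drd1, Drd2, Adora2a and Ppp1r1b had winter minus summer values of -0.06 ± 0.05, -0.08 ± 0.06, -0.04 ± 0.07 and 0.06 ± 0.05 (log2, SE), and 0 of the 10 on that list were called for season or for sex.

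**Figure D5:**
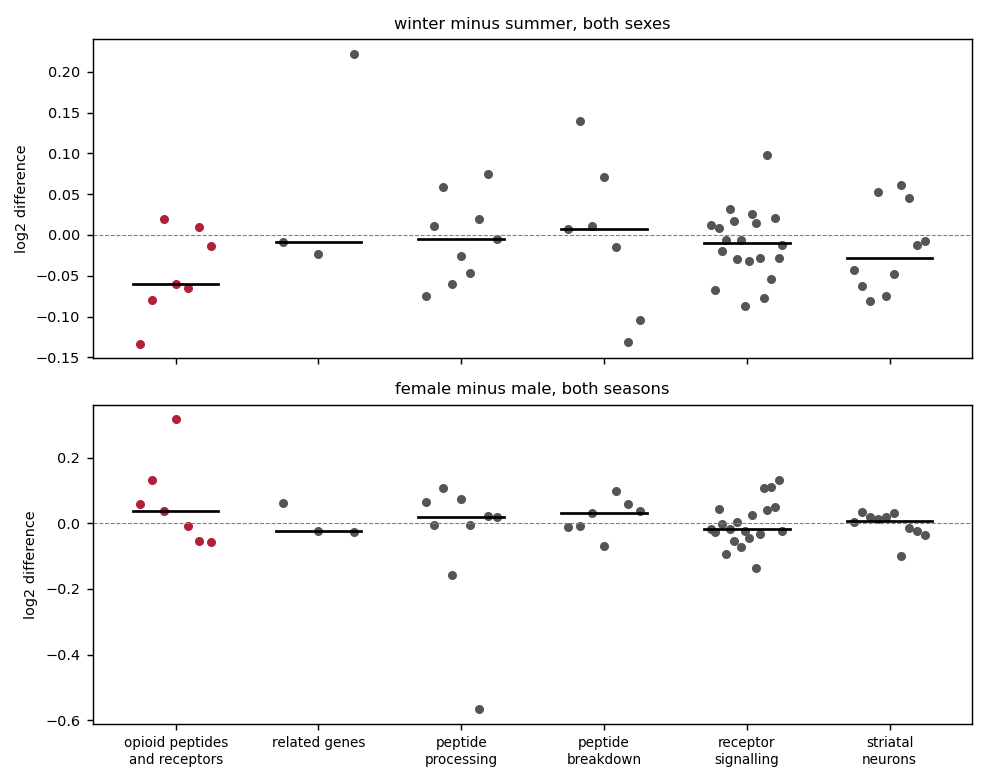
Log2 differences (vertical axes) of the opioid genes and of 5 other lists (horizontal axis), for winter minus summer above and female minus male below; points are genes and lines list medians. All list medians lie between -0.06 and 0.04, and the lowest point for sex, at -0.57, is the processing gene Pcsk1n, an inhibitor of a convertase (unadjusted p = 0.00179, adjusted 0.341 by limma), named after its value was seen.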

How the data were processed

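Libraries were strand-specific, paired-end and made from poly(A)-selected RNA, per the labels' protocols. The authors deposited 1 table of FPKM values per gene with 2 decimals; per the submitters' processing notes, HISAT and RSEM were used with GRCm38.p6. Tool versions and settings: not given in the sources used here. Of 18962 genes (and 1 empty line), 18836 IDs matched RefSeq. FPKM keep no read depth, so the precision behind each value is unknown, and they depend on what else a library holds.

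From these deposited FPKM, log2(FPKM + 1) was computed, and a gene was kept where 3 or more of the 12 libraries reached 1 FPKM (13071 genes, all 7 opioid genes among them). limma 3.58.1 in R 4.3.3 fitted 4 group means with 8 residual degrees of freedom and a variance trend, with Benjamini-Hochberg adjustment over all genes tested at 0.05; intervals are 95%. The model was first tested on simulated data with independent noise, which lacked the GC trends of these libraries. Python 3.11.15 with pandas 2.3.3, numpy 2.4.6 and matplotlib 3.10.9 did the rest. A library's GC trend used 12935 genes with transcript sequence. Core codes were searched in GENCODE M21 transcripts.

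Named genes are the 7 members, any called gene of a pathway list or otherwise its 2 genes with the smallest p for season, Pcp2 and 4 striatal genes, and the 3 genes most alike to each member; Gpr6 and Pcsk1n were named after their values were seen. The members, lists and rule were chosen with earlier results of these data known. Alternatives changed the pseudocount, filter, scaling and variance model, added a replicate block, fitted each sex alone or left out libraries.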

Additional observations from a re-analysis of the deposited data

Results flagged for a closer look

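Penk in female winter replicate 1 was flagged because it lay far below the other winter libraries. It had 96.29 FPKM, against 127.41 FPKM in the next lowest of the 6 winter libraries, a gap of 0.84 of the whole winter range, above Dixon's critical value for 6 samples. Of the 14 groups examined, 7 genes in each of 2 seasons, it was the only one flagged, and chance flags about 1 in 20. In the same library Drd2 and Adora2a were also lowest, at 16.1 and 11.5 FPKM, and the GC trend was -0.60; their part in the value was not tested.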

How the results depend on the processing

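The 35 differences of the 7 genes were recomputed 819 times under the alternatives, and 0 passed the threshold; the lowest adjusted p was 0.108 (limma), for Oprm1 by sex without female summer replicate 1. The sign turned in 48 of 420 values with a library left out and in 10 of 399 others, and the cause was not tested. Without the 2 libraries with the strongest GC trends, the season value in females was 0.0047 for Penk, 0.025 for Oprk1, 0.014 for Oprd1 and 0.0084 for Oprl1, the sex value 0.065 for Penk and 0.011 for Pnoc, and the interaction of Oprd1 0.15. That interaction, -0.0001 at first, was 0.0010 and 0.0005 with pseudocounts of 0.1 and 0.5 and 0.0094 with equal FPKM sums.

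With each library left out in turn, the log2 season values over both sexes ranged from -0.033 to 0.084 for Penk, -0.063 to 0.026 for Pnoc and -0.025 to 0.046 for Oprl1. In males they ranged from -0.0037 to 0.12 for Penk, -0.061 to 0.0072 for Pdyn, -0.030 to 0.078 for Pnoc and -0.24 to 0.075 for Oprm1. In females the ranges were -0.15 to 0.089 for Penk, -0.14 to 0.035 for Pnoc, -0.18 to 0.030 for Oprm1, -0.067 to 0.029 for Oprk1 and -0.10 to 0.040 for Oprl1. Interactions ranged from -0.22 to 0.0099 for Penk, -0.16 to 0.019 for Pnoc, -0.16 to 0.15 for Oprm1 and -0.089 to 0.080 for Oprd1, and sex values from -0.094 to 0.022 for Penk, -0.031 to 0.020 for Pdyn and -0.0068 to 0.064 for Oprl1. Ranges that kept their sign were wide too: for Oprd1 -0.18 to -0.094 for season over both sexes, -0.22 to -0.054 in females and 0.026 to 0.10 for sex, for Oprl1 0.0025 to 0.081 in males and -0.15 to -0.011 for the interaction, for Pdyn -0.16 to -0.058 in females and -0.14 to -0.042 for the interaction, for Oprk1 0.060 to 0.16 for the interaction, and for Pnoc -0.11 to -0.012 for sex. Genes called numbered 1 to 3 for season over both sexes, 1 to 3 in males, 0 to 1 in females and 8 to 136 for sex, the 136 without female summer replicate 1.

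The deviations of same-numbered libraries of different groups correlated at -0.23 to 0.24, with 6 of 18 pairs over 0.1. Differently numbered libraries were not compared, so these values cannot tell whether the numbers mark pairs. The main model did not take the numbers as pairs, and a shared day or batch was not tested. With the replicate block 12 genes were called for sex, in place of 8, and 0 opioid genes in any contrast. The unadjusted p of Oprd1 for season over both sexes was then 0.0225 (limma adjusted p = 0.969). With the block 1 of 7 members was thus under 0.05 in place of 0. The share of all genes under 0.05 with the block was not computed, so this count has no background beside it. With 3 libraries a group and unknown read depth, small changes of low genes such as Oprm1 were not detectable.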
